A study of Mus musculus with 12 samples.

Results

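The 10 genes examined here make the enzymes and the helper protein that turn arachidonic acid into prostaglandins and leukotrienes: Pla2g4a, Ptgs1, Ptgs2, Ptges, Hpgds, Alox5, Alox5ap, Lta4h, Ltc4s and Alox15. They were taken by symbol from 41709 genes in the count tables, and each symbol matched 1 gene. The values are RNA-seq read counts from BMDCs, dendritic cells grown from bone marrow for 10 days in medium with GM-CSF. After culture, MHCII+ cells were isolated with magnetic beads, and poly(A) RNA was sequenced. CD18fl/fl cells carried a floxed exon 3 of CD18 (gene Itgb2, the shared subunit of the β2 integrins) and no Cre, and CD18CD11c cKO cells carried the same floxed gene together with Cre under the CD11c promoter. The floxed allele was thus shared by all groups. Each genotype was examined unstimulated and after 100 ng/mL LPS for 24 h per the labels (overnight per the study's methods), with 3 libraries in each of 4 groups and 12 in all. Age and sex of the mice are not given in the sources used here, nor is it said whether the 3 libraries of a group came from separate mice or cultures, so that p-values measure only the spread between these libraries, which may be technical.

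Eicosanoids are short-lived lipid signals. Phospholipases release arachidonic acid from membranes. Cyclooxygenases convert it to prostaglandin H2, from which terminal synthases make single prostaglandins such as prostaglandin E2, a regulator of dendritic cell maturation and migration. 5-lipoxygenase, aided by its activating protein, converts the same fatty acid to leukotriene A4, the precursor of the chemoattractant leukotriene B4 and of the cysteinyl leukotrienes. LPS, a bacterial wall component sensed by Toll-like receptor 4, is a classical inducer of the cyclooxygenase that Ptgs2 encodes.

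The libraries held between 29689149 and 34037178 gene reads. Values are CPM, read counts brought to a common library size with TMM scaling, unless stated otherwise, and 3 reads, taken as the lower limit of detection, equalled 0.0752 to 0.134 CPM. Limits and intervals from read numbers cover counting error only, since PCR copies of 1 molecule were not told apart. Itgb2, the targeted gene, read 382.3, 420.0 and 382.9 CPM in replicates 1, 2 and 3 of unstimulated CD18fl/fl BMDCs. It read 119.9, 162.3 and 189.8 CPM in CD18CD11c cKO BMDCs, without overlap. After LPS it read 168.2, 171.4 and 267.5 CPM against 113.5, 89.0 and 118.5 CPM, again without overlap. edgeR did not call it without the replicate number (-1.26, adjusted p = 0.0887, and after LPS -0.93, adjusted p = 0.428). With the replicate number as a block it was called lower (-1.29, adjusted p = 0.00392, and -0.91, adjusted p = 0.0201). Reads over the whole gene were thus fewer but not lost, and they do not show how many transcripts kept exon 3. All 11 listed dendritic cell markers, H2-Ab1, H2-Aa, Cd74, Itgax and Zbtb46 among them, had reads in every library, with Flt3 down to 0.226 CPM. So had all 12 listed macrophage and monocyte markers, so that presence of reads does not tell these cell types apart. Libraries numbered 3 stood apart from those numbered 1 and 2 in all 4 groups, and same-numbered libraries deviated together. Each comparison was therefore fitted without the replicate number and with it as a block, and the value without replicate 3 is given where it alters a call. Leaving out replicate 3 raised the calls over all genes too. For LPS they rose to 3000 higher and 3140 lower of 12924 genes in CD18fl/fl, and to 1021 and 1028 of 12872 in CD18CD11c cKO. With all 3 replicates and no block they were 263 and 233 of 12744, and 283 and 223 of 12687.

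Reference promoters are shown for 4 of the genes because the results turn on them: the pair that rose with LPS, the constitutive counterpart of Ptgs2, and 5-lipoxygenase. Each holds 300 bases around the gene's start as listed by RefSeq on build GRCm38.p6, mostly before it. That build differs from the build of the count tables (GRCm39). Capitals mark matches, on either strand, to the motifs searched: the C/EBP palindrome TTGCGCAA, the E-box CACGTG, the CRE core ACGTCA, the GC box GGGCGG, the Ets/PU.1 core GAGGAA, the AP-1 motif TGANTCA, the TATA box TATAAA, and NF-kB.
Ptgs2 promoter, GRCm38.p6 chr1:150099781-150100080, plus strand: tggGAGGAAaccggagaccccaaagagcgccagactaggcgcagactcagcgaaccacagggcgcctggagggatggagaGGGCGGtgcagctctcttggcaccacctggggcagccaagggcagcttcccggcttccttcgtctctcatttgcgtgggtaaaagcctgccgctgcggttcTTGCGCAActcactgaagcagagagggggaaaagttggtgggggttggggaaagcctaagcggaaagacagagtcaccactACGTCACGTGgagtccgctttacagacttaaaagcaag
Ptges promoter, GRCm38.p6 chr2:30903248-30903547, minus strand: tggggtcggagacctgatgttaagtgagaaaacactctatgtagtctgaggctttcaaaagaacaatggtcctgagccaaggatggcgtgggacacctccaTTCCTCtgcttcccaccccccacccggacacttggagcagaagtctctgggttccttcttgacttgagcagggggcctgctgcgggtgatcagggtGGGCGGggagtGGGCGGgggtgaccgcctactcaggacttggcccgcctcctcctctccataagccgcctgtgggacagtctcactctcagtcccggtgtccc
Ptgs1 promoter, GRCm38.p6 chr2:36230176-36230475, plus strand: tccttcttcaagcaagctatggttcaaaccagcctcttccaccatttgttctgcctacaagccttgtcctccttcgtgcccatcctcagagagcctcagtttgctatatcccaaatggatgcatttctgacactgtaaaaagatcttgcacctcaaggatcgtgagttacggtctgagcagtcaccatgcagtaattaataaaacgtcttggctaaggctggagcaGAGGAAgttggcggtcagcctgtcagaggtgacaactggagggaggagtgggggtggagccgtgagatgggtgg
Alox5 promoter, GRCm38.p6 chr6:116461129-116461428, minus strand: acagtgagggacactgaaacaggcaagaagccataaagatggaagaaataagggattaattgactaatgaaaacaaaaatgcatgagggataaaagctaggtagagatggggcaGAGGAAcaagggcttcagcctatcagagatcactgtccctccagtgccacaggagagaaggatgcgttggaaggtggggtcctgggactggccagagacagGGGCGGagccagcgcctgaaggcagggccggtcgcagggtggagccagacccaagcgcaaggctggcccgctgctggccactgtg
The Ptgs2 window held the C/EBP palindrome 69 bases before the start, a sequence found in 0.184% of all 32544 promoter windows. It also held a GC box (35.9% of windows), a GAGGAA core (28.1%), a CRE core (7.55%) and an E-box (7.17%), the last 2 sharing bases in the run ACGTCACGTG just after the start. The Ptges window held 2 GC boxes, 53 and 42 bases before the start, and a GAGGAA core read from the other strand. The Ptgs1 window held only a GAGGAA core, and the Alox5 window a GC box and a GAGGAA core. Of the 8 members with an entry, Hpgds, Lta4h and Ltc4s also had a GAGGAA core, and 1 of 2 windows of Pla2g4a had a TATA box (13.6%). None of these windows held a match to AP-1 (7.79% of all windows) or NF-kB (8.49%). A match is a description of these letters, and its absence says only that they are not in these 300 bases. Alox5ap and Alox15 have no entry.

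After LPS, the 2 genes of inducible prostaglandin E2 synthesis, Ptgs2 and Ptges, rose in both genotypes, while the genes of the constitutive cyclooxygenase, of prostaglandin D2 synthesis and of the lipoxygenase branch were lower or level. In CD18fl/fl BMDCs, 8 of 10 members had groups that did not overlap (29.5% of 12744 genes tested), and in CD18CD11c cKO BMDCs 8 of 10 (28.2% of 12687). edgeR without the block called 2 members higher and 0 lower in each genotype, where it called 2.06% of all genes higher and 1.83% lower in CD18fl/fl and 2.23% and 1.76% in CD18CD11c cKO. With the block it called 2 higher and 6 lower in CD18fl/fl (6.33% and 6.43% of all genes) and 3 higher and 6 lower in CD18CD11c cKO (10.2% and 9.93%). DESeq2 called 2 higher and 5 lower in each genotype. Over all genes it called 969 higher and 826 lower of 18927 in CD18fl/fl, and 776 and 755 of 19186 in CD18CD11c cKO. The median log2 fold change of the 10 members was -1.38 in CD18fl/fl and -1.63 in CD18CD11c cKO, against -0.02 and -0.01 over all genes tested. In bulk RNA, fewer cells of a type and less RNA per cell cannot be told apart.

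**Figure D1:**
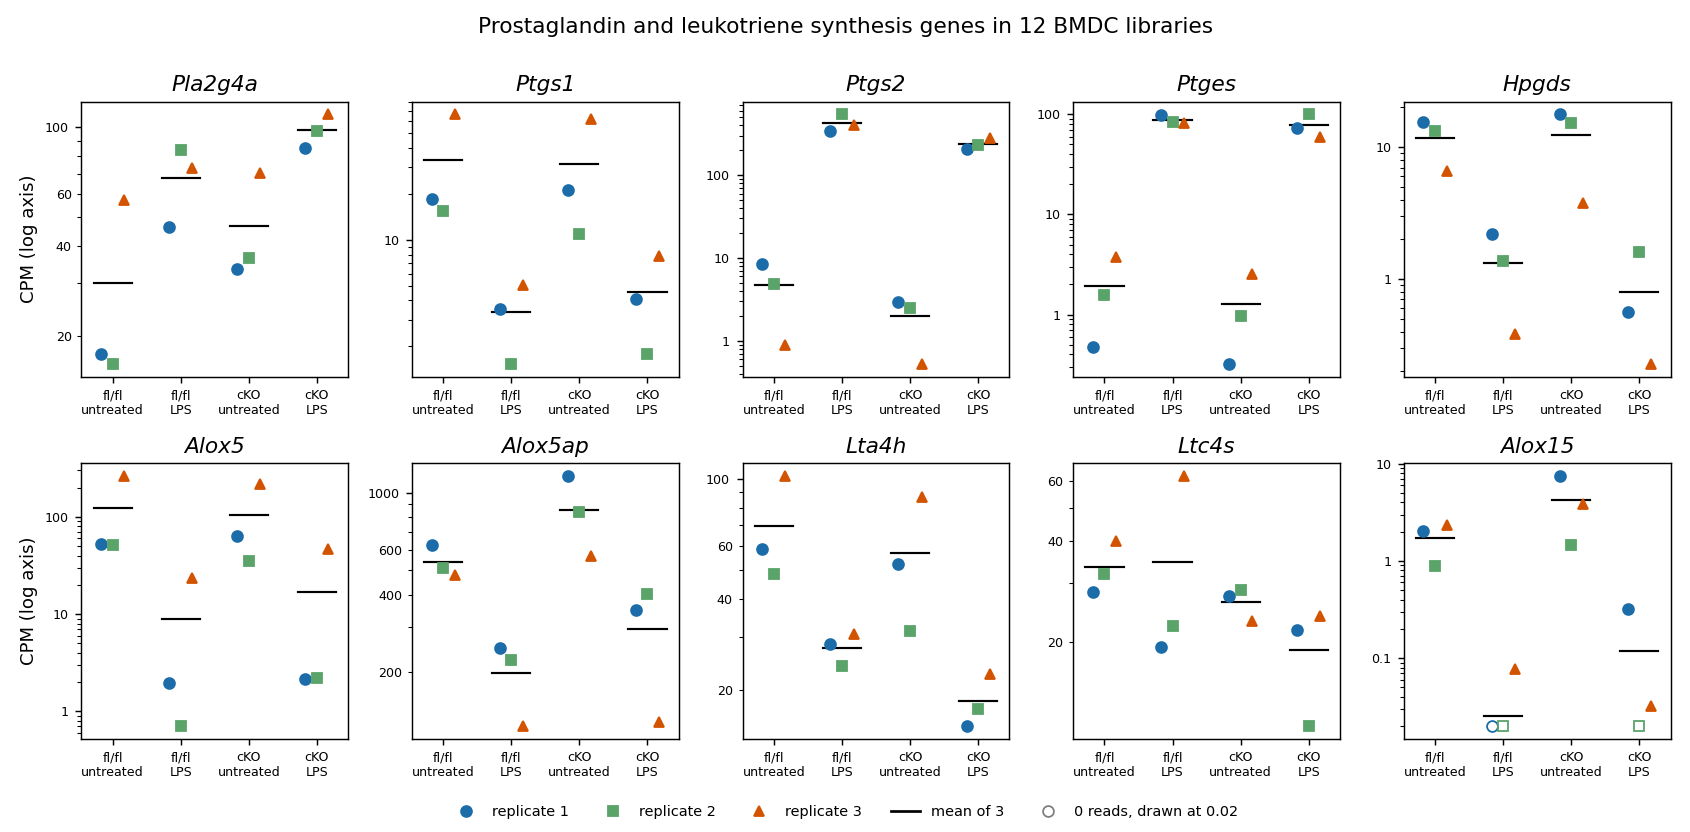
Level of each of the 10 members in every library, as CPM on a log axis that differs among panels, with replicates 1, 2 and 3 as points and the mean of 3 as a line. Ptgs2 and Ptges sit far higher after LPS in both genotypes, and Ptgs1, Hpgds, Alox5 and Alox15 lower. Values of 0 for Alox15 are drawn as open points at 0.02.

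Pla2g4a, on chromosome 1 at 149705369 to 149837041 (minus strand, GRCm39, ENSMUSG00000056220), encodes cytosolic phospholipase A2, which frees arachidonic acid. It read 17.4, 16.1 and 57.0 CPM in unstimulated CD18fl/fl BMDCs and 46.4, 83.8 and 73.2 CPM after LPS. The groups overlapped, because unstimulated replicate 3 lay above LPS replicate 1. Within each replicate number the LPS library was higher, by 1.42, 2.38 and 0.36 on the log2 scale. This gave a log2 fold change of 1.18 (SE 0.53, edgeR adjusted p = 0.232), and 1.39 with the block (SE 0.40, adjusted p = 0.0711), so no change was called. In CD18CD11c cKO BMDCs the gene read 33.6, 36.6 and 70.4 CPM unstimulated and 85.3, 97.4 and 110.9 CPM after LPS, without overlap. Its log2 fold change was 1.02 (SE 0.34, adjusted p = 0.146), and it was called only with the block (1.09, SE 0.20, adjusted p = 0.0122). Without replicate 3, edgeR called Pla2g4a higher in both genotypes (CD18fl/fl 1.95, adjusted p = 6.97e-05, and CD18CD11c cKO 1.28, adjusted p = 0.0117).

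Ptgs2, on the same chromosome at 149975782 to 149983978 (plus strand, ENSMUSG00000032487), encodes the inducible cyclooxygenase. Its 5′ end lies 138741 bases from that of Pla2g4a and the pair point away from each other, with 2 listed genes between them. It read 8.36, 4.79 and 0.891 CPM in unstimulated CD18fl/fl BMDCs and 344.7, 546.1 and 402.1 CPM after LPS. The corresponding values in CD18CD11c cKO BMDCs were 2.98, 2.48 and 0.521 CPM and 205.9, 231.1 and 278.8 CPM. Every LPS library was thus far above every unstimulated one. The log2 fold change was 6.52 in CD18fl/fl (SE 0.86, edgeR adjusted p = 0.0162) and 6.87 in CD18CD11c cKO (SE 0.70, adjusted p = 0.0115). The size of the rise differed more among replicate numbers than between genotypes: 41.2-, 114.07- and 451.3-fold in replicates 1, 2 and 3 of CD18fl/fl, and 69.2-, 93.0- and 534.7-fold in CD18CD11c cKO. The large rise in replicate 3 went with its low unstimulated level, since its LPS level lay between or just above those of the other replicates.

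Ptges, on chromosome 2 at 30779483 to 30819875 (minus strand, ENSMUSG00000050737), encodes microsomal prostaglandin E synthase-1, which acts after Ptgs2. It read 0.472, 1.58 and 3.75 CPM in unstimulated CD18fl/fl BMDCs and 98.2, 83.9 and 82.3 CPM after LPS. The CD18CD11c cKO libraries read 0.319, 0.960 and 2.55 CPM and then 73.4, 100.5 and 59.9 CPM. The LPS libraries again lay far above the unstimulated ones in each genotype. Log2 fold changes were 5.52 (SE 0.73, edgeR adjusted p = 0.0162) in CD18fl/fl and 5.86 (SE 0.75, adjusted p = 0.0173) in CD18CD11c cKO. The order of replicates was opposite to that of Ptgs2, with rises of 207.9-, 53.1- and 21.9-fold in CD18fl/fl and 230.03-, 104.7- and 23.5-fold in CD18CD11c cKO, because replicate 3 had the highest unstimulated Ptges level and the lowest unstimulated Ptgs2 level in both genotypes.

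The calls of Ptgs2 and Ptges depended on single libraries where the replicate number was left out of the fit. In CD18fl/fl, edgeR called neither gene without unstimulated replicate 1 or 2 or LPS replicate 1 or 2. Each of these fits called 0 genes higher and 0 lower over all genes tested. The log2 fold change of Ptgs2 then ranged over all 6 omissions from 6.03 to 7.24, with adjusted p from 0.00861 to 0.122, and that of Ptges from 5.06 to 6.41, with adjusted p from 0.00844 to 0.122. In CD18CD11c cKO neither was called without unstimulated replicate 1 or 2 or LPS replicate 2 (Ptgs2 6.41 to 7.25, adjusted p 0.00268 to 0.0680, and Ptges 5.40 to 6.85, adjusted p 0.00756 to 0.0852) and Ptges was not called without LPS replicate 1 either. Over all genes, edgeR there called 0 without unstimulated replicate 1, and 3 higher and 1 lower without unstimulated replicate 2. It called 2 higher and 0 lower without LPS replicate 2, and 21 and 5 without LPS replicate 1. With the block, Ptgs2 and Ptges were both called in each genotype whichever pair was left out.

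Ptgs1, on chromosome 2 at 36120438 to 36142284 (plus strand, ENSMUSG00000047250), encodes the constitutive cyclooxygenase and was lower after LPS. It read 18.6, 15.3 and 66.8 CPM in unstimulated CD18fl/fl BMDCs and 3.52, 1.53 and 5.08 CPM after LPS. Readings in CD18CD11c cKO BMDCs were 21.3, 10.9 and 61.7 CPM and then 4.06, 1.78 and 7.86 CPM. The groups did not overlap in either genotype, and replicate 3 was the highest in all 4 groups. Without the block the log2 fold change was -3.29 (SE 0.72, edgeR adjusted p = 0.0552) in CD18fl/fl and -2.79 (SE 0.78, adjusted p = 0.0958) in CD18CD11c cKO, above the threshold of 0.05. With it, Ptgs1 was called lower in both, at -3.15 (SE 0.33, adjusted p = 0.00601) and -2.71 (SE 0.22, adjusted p = 0.00157). Without replicate 3 it was called without the block too (-2.75, adjusted p = 6.84e-05, and -2.55, adjusted p = 0.0251).

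Hpgds, on chromosome 6 at 65094277 to 65121892 (minus strand, ENSMUSG00000029919), encodes hematopoietic prostaglandin D synthase, which competes with Ptges for prostaglandin H2. It read 15.4, 13.2 and 6.64 CPM in unstimulated CD18fl/fl BMDCs and 2.20, 1.38 and 0.383 CPM after LPS. The level in CD18CD11c cKO BMDCs was 17.8, 15.3 and 3.77 CPM and then 0.563, 1.60 and 0.226 CPM. The groups did not overlap, and replicate 3 was the lowest in every group. edgeR without the block gave -3.16 (SE 0.68, edgeR adjusted p = 0.0536) and -4.02 (SE 0.87, adjusted p = 0.0506), and with the block -3.35 (SE 0.38, adjusted p = 0.00703) and -4.10 (SE 0.44, adjusted p = 0.00246). Without replicate 3 and without the block, Hpgds was called lower as well (-3.00, adjusted p = 1.51e-05, and -4.04, adjusted p = 0.00696). Only 120 and 57 reads in all remained in the 3 LPS libraries of CD18fl/fl and CD18CD11c cKO, of which 19.2% and 36.8% lay in introns, against 9.50% and 7.96% in the unstimulated libraries. The LPS shares rest on 23 and 21 intron reads. Over all genes the intron share was also higher with LPS, at 2.39% to 4.54% against 1.91% to 2.30% in the unstimulated libraries.

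**Figure D2:**
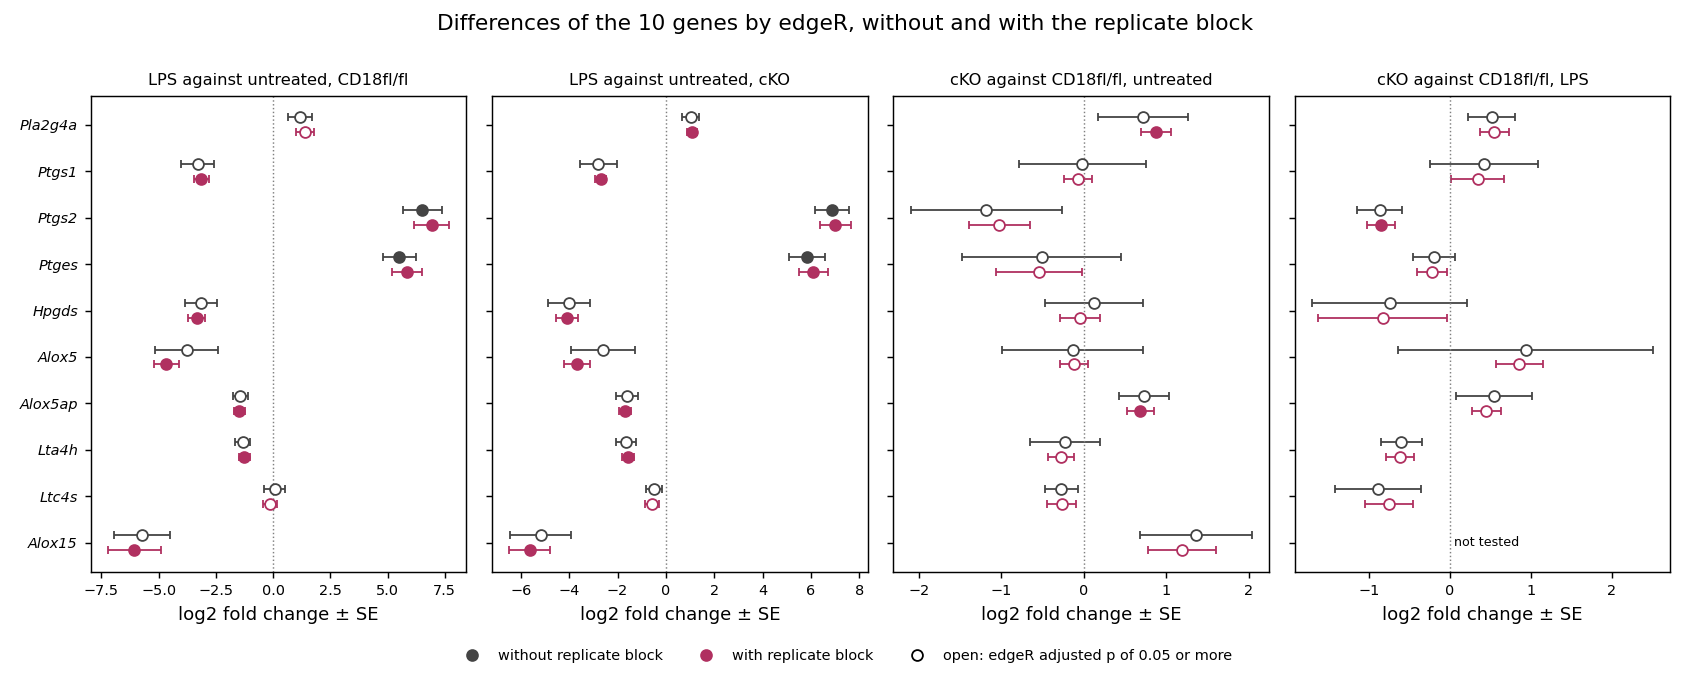
Log2 fold change of each member in the 4 pairwise comparisons, with the standard error as a bar, without and with the replicate block. Filled symbols have an adjusted p below 0.05, open symbols do not, the horizontal axes differ among panels, and Alox15 was not tested between genotypes after LPS. Both LPS panels show Ptgs2 and Ptges furthest to the right. Ptgs1, Hpgds, Alox5, Alox5ap, Lta4h and Alox15 lie at the left, with Ltc4s and Pla2g4a in between.

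Among the genes of the lipoxygenase branch, Alox5, on chromosome 6 at 116387038 to 116438139 (minus strand, ENSMUSG00000025701), encodes 5-lipoxygenase itself. It read 52.4, 50.8 and 263.5 CPM in unstimulated CD18fl/fl BMDCs and 1.97, 0.708 and 23.8 CPM after LPS, without overlap. In CD18CD11c cKO BMDCs it read 63.0, 35.1 and 215.7 CPM and then 2.13, 2.23 and 46.6 CPM, and LPS replicate 3 overlapped the unstimulated group. Within each replicate number Alox5 was lower with LPS in both genotypes, by log2 differences of -4.73, -6.17 and -3.47 and of -4.89, -3.98 and -2.21. Without the block this gave -3.77 (SE 1.38, edgeR adjusted p = 0.162) and -2.60 (SE 1.31, adjusted p = 0.311). With the block, Alox5 was called lower in both, at -4.67 (SE 0.55, adjusted p = 0.00761) and -3.67 (SE 0.53, adjusted p = 0.00541). Without replicate 3 it was called as well, at -5.25 (adjusted p = 4.94e-07) and -4.59 (adjusted p = 0.0031).

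Alox5ap, on chromosome 5 at 149201577 to 149224963 (plus strand, ENSMUSG00000060063), encodes the membrane protein that presents arachidonic acid to 5-lipoxygenase. It read 624.7, 506.9 and 478.4 CPM in unstimulated CD18fl/fl BMDCs and 247.6, 223.6 and 123.4 CPM after LPS. In CD18CD11c cKO BMDCs the values were 1161.6, 837.0 and 564.9 CPM and 349.3, 401.8 and 128.1 CPM. No LPS library reached the lowest unstimulated one. The log2 fold change was -1.43 (SE 0.33, edgeR adjusted p = 0.0629) in CD18fl/fl and -1.60 (SE 0.46, adjusted p = 0.1004) in CD18CD11c cKO. With the block it was called lower, at -1.48 (SE 0.24, adjusted p = 0.0173) and -1.69 (SE 0.23, adjusted p = 0.00468), and without replicate 3 also in the fit without the block (-1.27, adjusted p = 0.000129, and -1.51, adjusted p = 0.0107).

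Lta4h, on chromosome 10 at 93289273 to 93320737 (plus strand, ENSMUSG00000015889), encodes leukotriene A4 hydrolase, the source of leukotriene B4. It read 58.6, 48.4 and 102.1 CPM in unstimulated CD18fl/fl BMDCs and 28.4, 23.9 and 30.6 CPM after LPS, and 52.1, 31.2 and 86.8 CPM and then 15.2, 17.3 and 22.6 CPM in CD18CD11c cKO BMDCs. The groups did not overlap. With the block Lta4h was called lower in both genotypes (-1.26, SE 0.24, edgeR adjusted p = 0.0261, and -1.57, SE 0.24, adjusted p = 0.00706), whereas without it the values were -1.33 (SE 0.32, adjusted p = 0.0718) and -1.66 (SE 0.41, adjusted p = 0.0676). Leaving out replicate 3 gave calls without the block (-1.04, adjusted p = 0.000615, and -1.46, adjusted p = 0.0237).

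Ltc4s, on chromosome 11 at 50127288 to 50129443 (minus strand, ENSMUSG00000020377), encodes leukotriene C4 synthase, the first enzyme of the cysteinyl leukotrienes. Unlike the rest of this branch, it had no called change over all 3 replicates. It read 28.3, 32.0 and 39.9 CPM in unstimulated CD18fl/fl BMDCs and 19.4, 22.3 and 62.3 CPM after LPS, and 27.4, 28.5 and 23.1 CPM and then 21.8, 11.3 and 23.9 CPM in CD18CD11c cKO BMDCs. The groups overlapped, with LPS replicate 3 the highest in CD18fl/fl. The log2 fold change was 0.06 (SE 0.47, edgeR adjusted p = 0.950) and -0.50 (SE 0.34, adjusted p = 0.443), and -0.14 (adjusted p = 0.784) and -0.57 (adjusted p = 0.231) with the block, and the value in CD18fl/fl also turned with library size scaling (-0.17). Without replicate 3 the value in CD18fl/fl was -0.54 (SE 0.18, adjusted p = 0.0299), so that its call depended on leaving out that replicate. In CD18CD11c cKO the value without replicate 3 was -0.85 (adjusted p = 0.140), and the block without pair 3 called it lower (-0.92, SE 0.26, adjusted p = 0.0112). Gm26542 overlaps Ltc4s and was the only overlapping gene of any member with a read, and reads of both strands cannot be told apart here.

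Alox15, on chromosome 11 at 70234978 to 70242857 (minus strand, ENSMUSG00000018924), encodes 12/15-lipoxygenase, which makes other hydroxylated fatty acids. It had few reads, with 73, 35 and 86 reads in unstimulated CD18fl/fl BMDCs and 0, 0 and 3 reads after LPS, and with 212, 44 and 134 reads and then 8, 0 and 1 reads in CD18CD11c cKO BMDCs. No LPS library came near the unstimulated ones. Over the pooled reads, scaled for depth, the unstimulated level was 55.5 times the LPS level in CD18fl/fl (95% interval from read numbers 18.7 to 272, 194 against 3 reads) and 36.5 times in CD18CD11c cKO (19.0 to 80.4, 390 against 9 reads). edgeR gave adjusted p = 0.0510 and 0.0674 without the block, and called the gene lower with it (adjusted p = 0.0261 and 0.00648). Without replicate 3 and without the block, Alox15 was called lower in CD18fl/fl (-8.61, SE 1.66, adjusted p = 0.00158), where LPS replicates 1 and 2 had 0 reads. It was not called in CD18CD11c cKO (-4.81, SE 1.38, adjusted p = 0.0609). Calls made with the block that were lost without 1 replicate pair were those of Lta4h in CD18fl/fl without pair 1 or pair 2, of Alox5ap there without pair 1, of Alox15 there without pair 2, of Lta4h in CD18CD11c cKO without pair 1, and of Pla2g4a there without pair 1 or pair 2. Calls over all genes fell in these fits too. In CD18fl/fl they were 494 higher and 436 lower of 12948 without pair 1, and 299 and 256 of 13010 without pair 2. In CD18CD11c cKO they were 458 and 378 of 12938, and 650 and 714 of 12931.

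Set per kilobase of exon, so that genes can be compared, Alox5ap had the highest mean level of the 10 in all 4 groups. In unstimulated CD18fl/fl BMDCs it stood at 386 CPM per kb, above Ltc4s (45.4), Alox5 (43.3) and Lta4h (34.3), whose libraries overlapped. Ptgs1 (11.7) and Pla2g4a (9.87) followed, then Hpgds (3.38), and Ptgs2 (1.02), Alox15 (0.723) and Ptges (0.530), which overlapped, came last. After LPS in this genotype, Ptgs2 (94.1 CPM per kb) stood next to Alox5ap (143), with Ltc4s (47.1), Ptges (24.2) and Pla2g4a (22.2) behind, and each of these overlapped its neighbour. Lta4h (13.6) was lower, and Alox5 (3.12), Ptgs1 (1.18) and Hpgds (0.380) lower still. In CD18CD11c cKO BMDCs Alox5ap stood at 615 CPM per kb unstimulated, above Alox5 (37.1), Ltc4s (35.8), Lta4h (27.9), Pla2g4a (15.3) and Ptgs1 (10.9), each overlapping its neighbour, and Ptgs2 (0.435) and Ptges (0.350) came last. After LPS, Alox5ap (211.0) and Ptgs2 (52.1) each stood apart from the next gene, followed by Pla2g4a (32.0), Ltc4s (25.8) and Ptges (21.4), and then by Lta4h (9.06), Alox5 (6.03) and Ptgs1 (1.59).

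Ratios within a library compare the transcript levels of a pair of genes. The log2 ratio of Ptgs2 to Ptgs1 per kilobase was -1.83, -2.36 and -6.90 in unstimulated CD18fl/fl BMDCs and 5.94, 7.81 and 5.63 after LPS. In CD18CD11c cKO BMDCs it was -3.51, -2.81 and -7.56 and then 4.99, 6.34 and 4.47. Ptgs1 thus had the higher transcript level in every unstimulated library and Ptgs2 in every LPS library. The log2 ratio of Ptges to Hpgds turned in the same way, from -5.09, -3.13 and -0.89 to 5.41, 5.86 and 7.68 in CD18fl/fl and from -5.87, -4.06 and -0.63 to 6.96, 5.90 and 7.98 in CD18CD11c cKO. For Lta4h to Ltc4s, the ratio was -0.41, -0.87 and -0.11 unstimulated and -0.91, -1.36 and -2.49 after LPS in CD18fl/fl, without overlap. In CD18CD11c cKO it was -0.54, -1.33 and 0.45 and then -1.99, -0.85 and -1.55, with overlap. The ratio of Alox5 to Alox15 was 4.46, 5.63 and 6.60 in unstimulated CD18fl/fl BMDCs and 2.84, 4.36 and 5.57 in CD18CD11c cKO BMDCs, lower in the latter in every replicate number. For 3 libraries against 3, the smallest p an exact permutation test can give is 0.1, so no test of single ratios was made.

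**Figure D3:**
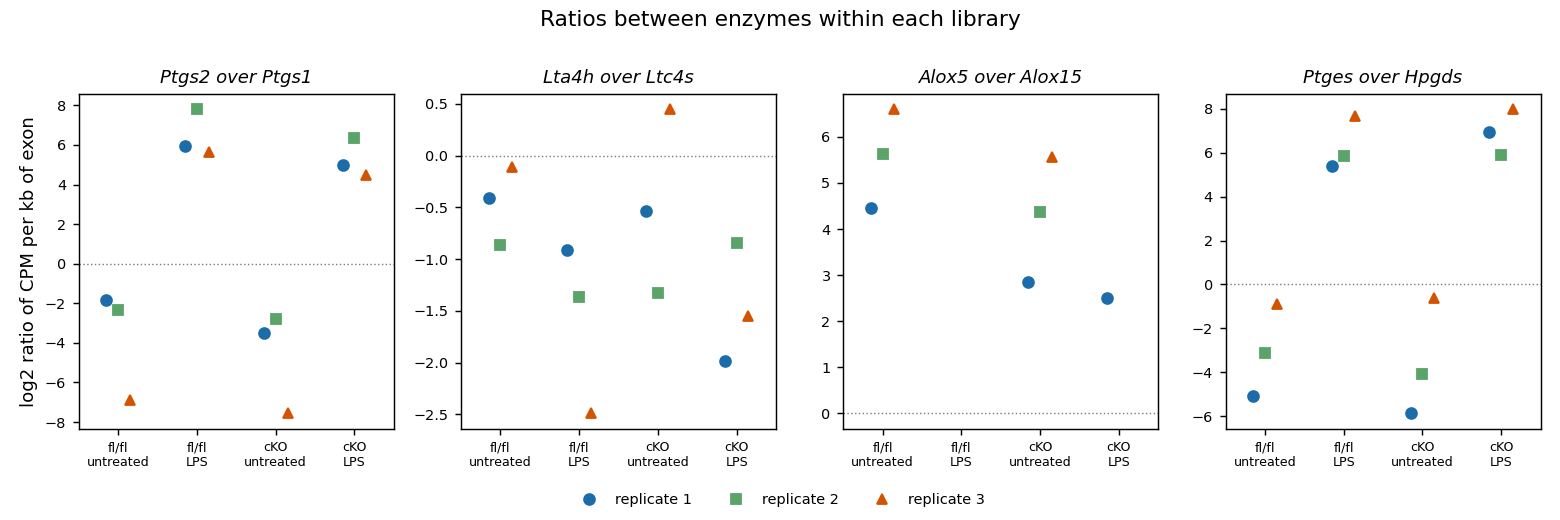
Log2 ratio of CPM per kilobase of exon for 4 pairs of members in each library, with 0 where both genes have the same level. Ptgs2 to Ptgs1 and Ptges to Hpgds lie below 0 in all unstimulated libraries and above 0 in all LPS libraries. Points are missing where either gene had 3 reads or fewer, which leaves only CD18CD11c cKO replicate 1 for Alox5 to Alox15 with LPS.

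The members also differed among replicate numbers, and 5 of the 10 did so alike in all 4 groups. Alox5, Ptgs1 and Lta4h were highest in replicate 3 in each group, as were 17.3% of 13752 genes, and Hpgds and Alox5ap were lowest in it, as were 15.3%. For Alox5, replicate 3 exceeded the mean of replicates 1 and 2 by 2.35 and 4.15 on the log2 scale in unstimulated and LPS-treated CD18fl/fl BMDCs and by 2.14 and 4.42 in CD18CD11c cKO BMDCs. For Ptgs1 the excess was 1.98, 1.01, 1.94 and 1.43 in the same order. For Hpgds the difference was -1.11, -2.22, -2.13 and -2.26. Ptgs2 and Ptges differed in unstimulated cells, with Ptgs2 at -2.88 and -2.39 and Ptges at 1.87 and 1.99 in CD18fl/fl and CD18CD11c cKO, and less after LPS, with Ptgs2 at -0.15 and 0.35 and Ptges at -0.15 and -0.54. Pla2g4a, Ltc4s and Alox15 had no common pattern over the groups, with Pla2g4a at 1.77 and 1.01 unstimulated and 0.17 and 0.28 after LPS.

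**Figure D4:**
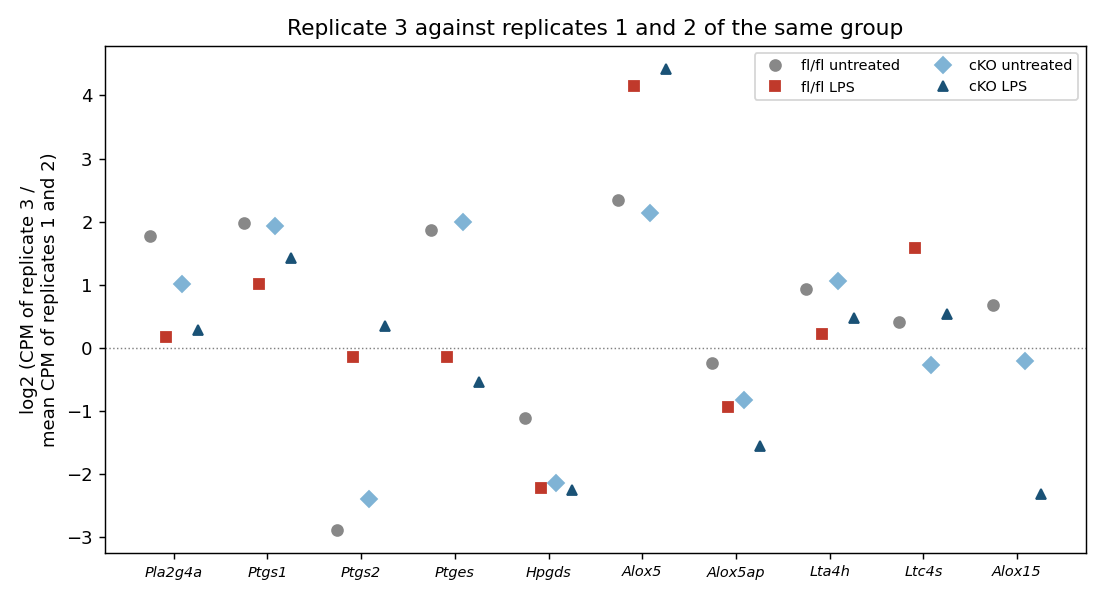
Log2 ratio of replicate 3 to the mean of replicates 1 and 2 for each member in the 4 groups. Alox5, Ptgs1 and Lta4h lie above 0 in all groups and Hpgds and Alox5ap below 0 in all groups.

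Other cell types of bone marrow cultures also express these enzymes, and the marker sums of some were highest or lowest in replicate 3 in all 4 groups. The sums of eosinophil markers and of red cell and platelet markers were not. The summed level of 13 mast cell and basophil markers was 49.8, 55.3 and 139 CPM in unstimulated CD18fl/fl replicates 1, 2 and 3, 28.5, 23.2 and 139 CPM after LPS, 41.2, 48.0 and 253 CPM in unstimulated CD18CD11c cKO BMDCs and 36.7, 31.1 and 198 CPM after LPS. It was highest in replicate 3 in each group, as Alox5 and Ptgs1 were, and rested on Cpa3, Gata2, Kit, Hdc and Cyp11a1. The mast cell proteases Mcpt4 and Tpsab1 were at 0 in all 12 libraries and Cma1 in 11, and the receptor genes Ms4a2 and Fcer1a reached at most 1.36 and 0.894 CPM. The summed macrophage and monocyte markers (12 of 12 measured, led by Lyz2) were lowest in replicate 3 in each group. They were also lower with LPS in each replicate number, from 32638, 33613 and 9115 CPM to 12097, 14487 and 7448 CPM in CD18fl/fl and from 26468, 63061 and 16861 CPM to 12969, 16068 and 11112 CPM in CD18CD11c cKO, as the members called lower were. The 11 dendritic cell markers summed to 13815 to 35971 CPM and were also lowest in replicate 3. The 8 eosinophil markers, of which Epx was at 0 in 10 libraries, summed to 2.67 to 44.7 CPM without LPS and to 0.459 to 6.51 CPM with it. They were lower with LPS, as Alox15 was, but unstimulated CD18fl/fl replicate 3 had the lowest sum of its group (2.67 CPM) and the most Alox15 reads (86). Neutrophil markers ranged from 11.6 to 1330 CPM, T, B and NK cell markers from 1.94 to 110.2 CPM, and red cell and platelet markers from 18.5 to 157 CPM. The part of these cells in the members' values was not tested.

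Between the genotypes, no member was called without the block. In unstimulated BMDCs the groups overlapped for all 10 members, whereas they did not overlap for 25% of 12876 genes. edgeR without the block called 0 members and 0% of all genes higher and 0% lower. At an unadjusted p under 0.05 it passed 1 member and 2159 genes in all. DESeq2 called 0 members, beside 491 higher and 47 lower of 18793 genes. With the block edgeR called 2 members higher, Pla2g4a and Alox5ap, and 0 lower, against 12.1% and 8.16% of all genes. Pla2g4a was higher in CD18CD11c cKO in each replicate number, by 0.95, 1.19 and 0.31 on the log2 scale (0.72, SE 0.55, adjusted p = 0.545, and with the block 0.88, SE 0.19, adjusted p = 0.0183). Alox5ap was higher by 0.89, 0.72 and 0.24 (0.73, SE 0.30, adjusted p = 0.289, and with the block 0.69, SE 0.16, adjusted p = 0.0252). Neither was called with the block once pair 1 or pair 2 was left out. Calls over all genes fell too, to 837 higher and 171 lower of 13082 without pair 1 and 386 and 65 of 12978 without pair 2. Without replicate 3, both were called in the fit without the block (Pla2g4a 1.14, adjusted p = 0.0218, and Alox5ap 0.89, adjusted p = 0.0456). That fit called 1034 of 13068 genes higher and 349 lower. In a further fit with the block and all 3 replicates, the trend of log2 CPM with exon length, relative to each gene's mean, was removed in each library. There Pla2g4a was still called (0.90, adjusted p = 0.0286) and Alox5ap was not (0.26, adjusted p = 0.289). Ltc4s, the shortest member, was called lower (-1.02, SE 0.16, adjusted p = 0.0133, against -0.27 with the block alone).

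The same comparison turned with the scaling. With library size alone in place of TMM, the median of all genes moved on the log2 scale by -0.31 and -0.21 for LPS in CD18fl/fl and CD18CD11c cKO, and by -0.39 and -0.26 between genotypes without and with LPS. In unstimulated BMDCs the block then called 0 members higher and 3 lower, Ptgs2, Lta4h and Ltc4s, against 5.44% and 30.1% of all genes, with Pla2g4a at 0.49 (edgeR adjusted p = 0.0677) and Alox5ap at 0.29 (adjusted p = 0.154). Ptgs2 was lower in CD18CD11c cKO in each replicate number, by log2 differences of -1.49, -0.95 and -0.77 (block -1.03, SE 0.37, adjusted p = 0.0861 with TMM, and -1.42, adjusted p = 0.0242, with library size). Alox15 was higher by 1.89, 0.73 and 0.74 (1.36, SE 0.68, adjusted p = 0.358, and with the block 1.195, SE 0.41, adjusted p = 0.0773). The other members had log2 fold changes between -0.51 (Ptges) and 0.12 (Hpgds) without the block.

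After LPS, Ptgs2 was lower in CD18CD11c cKO than in CD18fl/fl BMDCs in every replicate number, at 0.597, 0.423 and 0.693 of the CD18fl/fl level. The groups did not overlap for Ptgs2 and Lta4h, which lay below CD18fl/fl, and for Pla2g4a, which lay above it, 3 of 10 members beside 17.9% of 12441 genes tested. edgeR without the block called 0 of 9 members tested and 0% of all genes higher and 0% lower, with 1 member and 1212 genes at an unadjusted p under 0.05. DESeq2 called 0 members, beside 141 higher and 9 lower of 19049 genes. With the block edgeR called 0 members higher and 1 lower, against 6.98% and 3.16% of all genes. That member was Ptgs2, at -0.86 without the block (SE 0.28, adjusted p = 0.438) and -0.85 with it (SE 0.17, adjusted p = 0.0273). Leaving out pair 1 or pair 2 ended this call (-0.90, adjusted p = 0.140, and -0.62, adjusted p = 0.117), and without pair 3 it stood at -1.01 (adjusted p = 0.00961). Calls over all genes fell too, to 3 higher and 0 lower of 12805 without pair 1 and 203 and 25 of 12866 without pair 2. Without pair 3 they were 883 and 517 of 12390. Removing the trend with exon length also ended the call of Ptgs2 (-0.68, SE 0.19, adjusted p = 0.0745), and then called Ltc4s lower (-1.34, SE 0.28, adjusted p = 0.0332, against -0.75 and adjusted p = 0.147 with the block alone). Lta4h had a block value of -0.61 (SE 0.17, adjusted p = 0.0649) and Pla2g4a of 0.55 (SE 0.17, adjusted p = 0.0891). With library size scaling and the block, Ptgs2 (-1.10, adjusted p = 0.0137) and Lta4h were called lower, where 4.74% of all genes were called higher and 16.5% lower. Alox5 was higher in each replicate number, by 0.11, 1.65 and 0.97 on the log2 scale (block 0.86, SE 0.29, adjusted p = 0.106). Ptges differed by -0.19 without the block and -0.22 with it, with 59.9 to 100.5 CPM in CD18CD11c cKO and 82.3 to 98.2 CPM in CD18fl/fl. Alox15 did not pass the filter on low counts here.

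Whether the response to LPS differed between genotypes was tested as the interaction over all 12 libraries. edgeR called 0 members and 0% of 13752 genes in either direction, with 0 members at an unadjusted p under 0.05 and 0 by DESeq2, without and with the block. The difference in log2 fold change (CD18CD11c cKO minus CD18fl/fl) was 0.39 for Ptgs2 (SE 0.96), 0.41 for Ptges (SE 0.96), 1.17 for Alox5 (SE 1.96), -0.79 for Hpgds (SE 1.11) and -0.10 for Alox5ap (SE 0.60). The standard errors of the 10 members ran from 0.52 to 1.96, which limits the differences that could be detected.

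The pathway around the members was described with 86 listed genes, of which 81 were in the count tables and 59 were tested for LPS in CD18fl/fl and 57 in CD18CD11c cKO. edgeR without the block called 3 higher and 6 lower in CD18fl/fl (2.06% and 1.83% of all genes). It called 3 higher and 5 lower in CD18CD11c cKO (2.23% and 1.76%). With the block these were 6 and 15, and 8 and 20, or 10.2% and 25.4% of the 59 and 14.0% and 35.1% of the 57, beside the shares of all genes given above. With library size scaling and the block they were 2 and 19 (3.74% and 8.98% of all genes), and 6 and 23 (6.97% and 14.7%). Between genotypes 0 were called without the block in either state. With it, 12 were higher and 5 lower unstimulated (12.1% and 8.16% of all genes). After LPS, 7 were higher and 2 lower (6.98% and 3.16%). With library size scaling these were 4 higher and 16 lower, and 3 higher and 10 lower. The calls over all genes shifted to lower in the same way, to 5.44% higher and 30.1% lower unstimulated and to 4.74% and 16.5% after LPS.

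**Figure D5:**
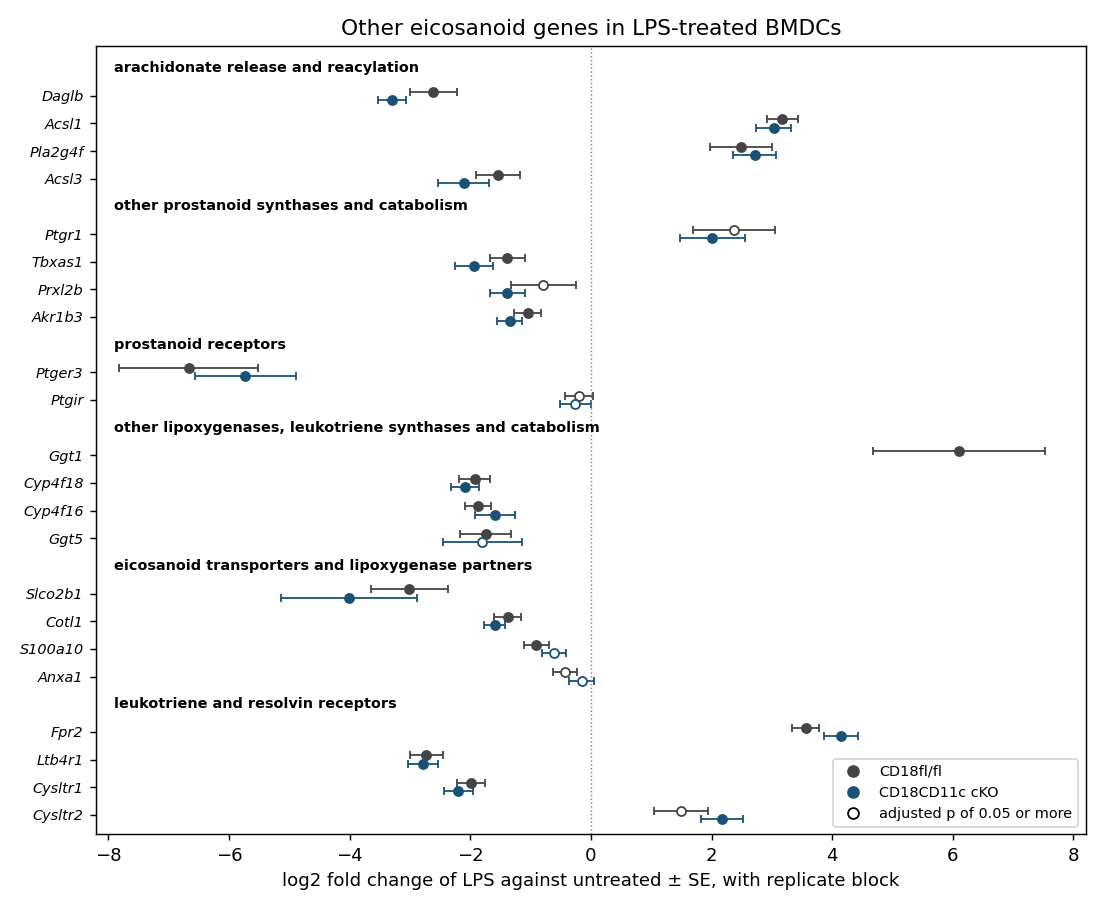
Log2 fold change with LPS of the named pathway genes in CD18fl/fl and CD18CD11c cKO BMDCs, from the fit with the replicate block, with the standard error as a bar. Acsl1, Fpr2 and Cysltr2 lie above 0 and Daglb, Ltb4r1, Cysltr1 and Ptger3 below 0 in both genotypes. Ggt1 was not tested in CD18CD11c cKO.

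Upstream of the members, Acsl1, which activates fatty acids to their CoA esters, read 28.8, 27.1 and 29.8 CPM in unstimulated CD18fl/fl BMDCs and 300.0, 282.1 and 199.3 CPM after LPS. It rose in both genotypes (3.19, SE 0.27, edgeR adjusted p = 0.00989, and 3.02, SE 0.35, adjusted p = 0.0131). Daglb, a diacylglycerol lipase, read 37.3, 39.9 and 7.05 CPM and then 3.72, 5.59 and 2.27 CPM in CD18fl/fl. It was called lower with the block there (-2.61, adjusted p = 0.0130, against adjusted p = 0.0699 without it) and by both fits in CD18CD11c cKO (-3.24, adjusted p = 0.0338). Of 17 genes for arachidonate release and reacylation tested in each genotype, the block called 3 higher and 3 lower in CD18fl/fl (6.33% and 6.43% of all genes). In CD18CD11c cKO it called 3 higher and 6 lower (10.2% and 9.93%). Pla2g4f, a further cytosolic phospholipase A2, was among the higher (2.49, adjusted p = 0.0310, or 0.0639 with library size scaling, and 2.72, adjusted p = 0.00415), and Acsl3 among the lower (-1.54, adjusted p = 0.0439, and -2.11, adjusted p = 0.0158).

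Of the other prostanoid enzymes, Tbxas1, the thromboxane synthase, fell from 123.6, 117.4 and 77.4 CPM to 37.9, 35.0 and 47.4 CPM in CD18fl/fl (-1.40, SE 0.28, edgeR adjusted p = 0.0448). In CD18CD11c cKO it was called with the block only (-1.94, adjusted p = 0.00786, against 0.102 without it). Akr1b3, an aldose reductase with prostaglandin F synthase activity, was called lower in CD18CD11c cKO (-1.36, adjusted p = 0.0386) and with the block in CD18fl/fl (-1.05, adjusted p = 0.0332). Ptgr1, which inactivates prostaglandins and leukotriene B4, had its unstimulated and LPS libraries apart and was called higher with the block in CD18CD11c cKO (2.01, adjusted p = 0.0416, or 0.0537 with library size scaling) but not in CD18fl/fl (2.37, adjusted p = 0.0711). Prxl2b, a prostaglandin F synthase, was called lower with the block in CD18CD11c cKO (-1.39, adjusted p = 0.0186). Of 9 and 11 genes of this list tested, the block called 0 higher and 2 lower in CD18fl/fl (6.33% and 6.43% of all genes). In CD18CD11c cKO it called 1 higher and 4 lower (10.2% and 9.93%).

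Among genes that convert or degrade leukotrienes, Cyp4f16 fell in CD18fl/fl from 32.1, 32.8 and 30.5 CPM to 8.37, 9.09 and 8.44 CPM (-1.88, SE 0.21, edgeR adjusted p = 0.0138). In CD18CD11c cKO it was called with the block (-1.59, adjusted p = 0.0192). Cyp4f18, a leukotriene B4 hydroxylase, was called lower with the block in both genotypes (-1.93, adjusted p = 0.00993, and -2.09, adjusted p = 0.00264), and Ggt5, which cleaves leukotriene C4, in CD18fl/fl (-1.74, adjusted p = 0.0475). Ggt1 was called higher in CD18fl/fl (adjusted p = 0.0484) on 2 unstimulated and 149 LPS reads, a ratio of 86.8 (95% interval from read numbers 23.6 to 723). With the block its adjusted p was 0.0437, and 0.0558 with library size scaling. Of 13 and 11 genes of this list tested, the block called 1 higher and 4 lower in CD18fl/fl (6.33% and 6.43% of all genes). In CD18CD11c cKO it called 1 higher and 5 lower (10.2% and 9.93%).

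Receptors moved in both directions. Ltb4r1, the high-affinity leukotriene B4 receptor, fell from 39.9, 31.5 and 30.05 CPM to 5.11, 3.87 and 6.404 CPM in CD18fl/fl (-2.71, SE 0.29, edgeR adjusted p = 0.0138) and from 23.7, 35.8 and 29.5 CPM to 4.42, 4.01 and 4.69 CPM in CD18CD11c cKO (-2.81, SE 0.28, adjusted p = 0.0115). The 2 receptors of cysteinyl leukotrienes differed in direction. Cysltr1 fell (-1.98, adjusted p = 0.0222, and -2.23, adjusted p = 0.0183), while Cysltr2 rose in CD18CD11c cKO from 1.63, 2.68 and 2.09 CPM to 11.4, 10.9 and 7.56 CPM (2.17, SE 0.38, adjusted p = 0.0339) and had a value of 1.55 in CD18fl/fl (adjusted p = 0.104). Fpr2, a receptor for formyl peptides and lipoxin A4, rose in both (3.57, adjusted p = 0.0138, and 4.06, adjusted p = 0.0131). Ptger3, a prostaglandin E2 receptor, went from 671, 535 and 351 reads to 0, 0 and 18 in CD18fl/fl, a ratio of 74.3 (46.8 to 126), and from 539, 219 and 111 reads to 6, 0 and 7 in CD18CD11c cKO, a ratio of 56.3 (32.7 to 106), and was called lower in both (adjusted p = 0.0448 and 0.0374). Of 9 listed prostanoid receptors, 5 were tested in CD18fl/fl and 4 in CD18CD11c cKO, and the others of these were not called.

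Transporters and partner proteins were few. Cotl1, a binding partner of 5-lipoxygenase, fell with LPS in CD18fl/fl (-1.35, SE 0.28, edgeR adjusted p = 0.0493) and, with the block, in CD18CD11c cKO (-1.60, adjusted p = 0.00263). Slco2b1 was called lower with the block in both (-3.01, adjusted p = 0.0332, and -4.01, adjusted p = 0.0478). Anxa1 and S100a10, whose proteins bind cytosolic phospholipase A2, stood out between the genotypes. Anxa1 read 1089, 1018 and 834.9 CPM in unstimulated CD18fl/fl and 1590, 2559 and 1536 CPM in CD18CD11c cKO BMDCs, and S100a10 read 513.3, 426.8 and 384.4 CPM against 1027, 825.6 and 918.8 CPM. The genotypes did not overlap for either gene, without or with LPS. With the block both were called higher in CD18CD11c cKO, Anxa1 at 0.98 (adjusted p = 0.0127) and after LPS 1.24 (adjusted p = 0.00641), and S100a10 at 1.14 (adjusted p = 0.00376) and 1.40 (adjusted p = 0.00641), and library size scaling left both called. Without the block the adjusted p values were 0.169 and 0.286 for Anxa1 and 0.0955 and 0.286 for S100a10. Ptgir, the prostacyclin receptor, was called lower with the block in both states (-0.79, adjusted p = 0.0228, and -0.88, adjusted p = 0.0364), and Cysltr2 higher after LPS (1.00, adjusted p = 0.0459), a call that library size scaling ended (adjusted p = 0.0722).

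Over the 12 libraries, which share 4 groups and 3 replicate numbers, the genes whose log2 CPM followed each member most closely are given as a description. For Ptgs2 they were Ifit1 (Pearson r 0.996) and Irf7 (0.996), both interferon-inducible, and for Ptges Layn (0.981) and Procr (0.976). Alox5 was followed by Sobp (0.992) and Mlec (0.989), and Ptgs1 by Poglut2 (0.972) and Mmut (0.966). Hpgds was followed by Otulinl (0.972) and Slc66a2 (0.970), Alox5ap by Il18r1 (0.977) and Slc25a3 (0.974), and Pla2g4a by Gch1 (0.955) and Gm36486 (0.954). Lta4h was followed by Rpia (0.961) and Nsun2 (0.957) and Alox15 by Spaca9 (0.967) and Cct2 (0.961). Ltc4s, the member with no called change after LPS in the fits of 3 pairs, was followed less closely, with Chd6 at 0.920.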

How the data were processed

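RNA-seq of BMDCs from CD18fl/fl and CD18CD11c cKO mice, unstimulated or LPS-treated, was analysed with 3 libraries in each of 4 groups, taken from the library labels. Per the study's methods, the authors mapped single-end reads in CLC Genomics Workbench (22.0 in the submitters' processing notes) against GRCm39. The submitters' processing notes list GRCm 38, and the gene coordinates in the files are those of GRCm39. The authors deposited raw counts for each library, as total gene reads, which keep reads with several positions, and as unique gene reads (95.1% to 96.2% of the total). The kit is not described as strand-specific.

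Total gene read counts were tested with edgeR 4.0.16 (R 4.3.3) by the quasi-likelihood test after TMM scaling and the filter on low counts (minimum count 10), over all genes, and a gene was called at a Benjamini-Hochberg adjusted p under 0.05. Each comparison was fitted on its 6 libraries and the interaction on 12. The standard error is the log2 fold change divided by the square root of F. The fit with the replicate number as a block was planned as an alternative, and was checked for pairing: deviations from the group means of same-numbered libraries correlated across genes at 0.26 to 0.74 in the 12 pairs. Libraries numbered 1 and 2 correlated with each other at 0.18 to 0.36, and in CD18fl/fl with LPS the pair numbered 2 (0.26) lay within that range, while those numbered 3 correlated negatively with the others. The numbers come from the library labels, and nothing states that same-numbered libraries were cultured together. Other alternatives were DESeq2 1.42.0, other scalings and filters, unique gene reads, an exon-length offset, all 12 libraries in 1 fit, and libraries left out. The scripts were tested on simulated counts. Level ratios use CPM per kilobase of exon, and a count of 3 reads is the floor. Promoter windows are RefSeq's (8 of 10 members matched). Figures were drawn with matplotlib 3.10.9 in Python 3.11.15, and intervals of read ratios with scipy 1.17.1.

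The members, the pathway lists and the marker lists were chosen with earlier results of these data known. All 10 members are named, with Itgb2 as the targeted gene. Up to 4 genes of each pathway list are named, those with the largest fold change among genes called in a pairwise comparison without or with the block. For each member, the 2 genes with the highest correlation over the 12 libraries are named, except 1 gene that is not reported here.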

Additional observations from a re-analysis of the deposited data

How the results depend on the processing

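Members called for LPS in CD18fl/fl (2 in the fit without the block) numbered 8 with the replicate block, 7 by DESeq2, 4 with library size scaling and 8 with it and the block, 5 with no filter on low counts, 3 at a minimum count of 50 and with unique gene reads, 8 with the exon-length offset and block, 10 with replicates 1 and 2 only, 5 with all 12 libraries in 1 fit and 9 with them and the block, and 0 to 8 with 1 library left out. For LPS in CD18CD11c cKO (2) the numbers were 9, 7, 3 and 9, 7, 3, 9, 8, 5 and 9, and 0 to 4 in the same order. Between genotypes (0) they were 2 with the block, 3 with library size scaling and block, 2 with the exon-length offset and block and 2 with replicates 1 and 2 only in unstimulated cells, and 1, 2, 1 and 0 after LPS. With the exon-length offset the members called were Pla2g4a higher and Ltc4s lower in unstimulated cells and Ltc4s lower after LPS. All other alternatives gave 0 between genotypes, and all gave 0 for the interaction. Leaving 1 replicate pair out of the block, chosen after seeing the data, gave 6, 6 and 10 members in CD18fl/fl, 7, 8 and 10 in CD18CD11c cKO, 0, 0 and 3 between unstimulated and 0, 0 and 2 between LPS-treated genotypes without pair 1, 2 and 3. Calls over all genes moved in the same settings. Replicates 1 and 2 only gave 3000 higher and 3140 lower of 12924 genes in CD18fl/fl, and 1021 and 1028 of 12872 in CD18CD11c cKO. All 12 libraries with the block gave 1670 and 1695 of 13752, and 1621 and 1395. The block without pair 3 gave 3096 and 3275 of 12924, and 2018 and 2039 of 12872. Between unstimulated genotypes the exon-length offset with block gave 934 and 546 of 12876, and replicates 1 and 2 only 1034 and 349 of 13068. The block without pair 1, 2 and 3 gave 837 and 171 of 13082, 386 and 65 of 12978, and 1943 and 1544 of 13068. After LPS the offset gave 619 and 256 of 12441, and replicates 1 and 2 only 402 and 121 of 12390. Without pair 1, 2 and 3 the block gave 3 and 0 of 12805, 203 and 25 of 12866, and 883 and 517 of 12390. The cause of these changes was not tested. Where 1 library is left out, its group of 2 is assumed to vary like the other group.

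Directions turned only for values that were not called by the fit without the block. For Ltc4s with LPS in CD18fl/fl (0.06) the value was -0.14 with the block, -0.17 with library size scaling, -0.47 with it and the block, -0.36 with the exon-length offset and block, -0.54 with replicates 1 and 2 only, -0.063 with all 12 libraries and block, -0.54 with the block without pair 3, and -0.68 to 0.35 with 1 library left out. For Hpgds between unstimulated genotypes (0.12) it was -0.050 with the block, -0.30 with library size scaling, -0.44 with it and the block, -0.15 with all 12 libraries and block, -0.21 and -0.22 with the block without pair 1 or 2, and -0.22 to 0.57 with 1 library left out. Ptgs1 there (-0.02) was 0.0037 at a minimum count of 50 and 0.11 with the block without pair 2, and Alox5 (-0.14) was 0.0533 with the latter. With 1 library left out, unstimulated genotypes differed by -0.97 to 0.92 for Ptgs1, -1.49 to 0.36 for Ptges, -1.23 to 1.06 for Alox5 and -0.66 to 0.13 for Lta4h, and LPS-treated ones by -0.25 to 0.85 for Ptgs1 and -2.06 to 3.67 for Alox5. Interaction values with 1 library left out ran from -1.03 to 0.31 for Pla2g4a, -0.49 to 1.495 for Ptgs1, -0.43 to 0.80 for Ptgs2, -0.59 to 1.41 for Ptges, -1.79 to 3.81 for Alox5, -0.49 to 0.26 for Alox5ap, -0.74 to 0.15 for Lta4h, -0.89 to 0.11 for Ltc4s and -1.87 to 3.52 for Alox15. Over single members, 813 values kept their direction and side of the threshold, 159 passed it anew, 15 lost it and 49 turned. Depth limits Alox15 and Hpgds after LPS, where few reads remained.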
